A study of Mus musculus with 22 samples.

Results

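A set of 10 genes that mark the fields of the hippocampus was followed through 11 libraries of ribosome pulldown and supernatant RNA from mouse CA1. They were taken by symbol, with no measured value in the rule, from 29848 genes in each deposited table, and each of the 10 had a row. The set held 4 markers of CA1 (Wfs1, Mpped1, Fibcd1 and Pou3f1), 3 of CA2 and CA3 (Pcp4, Amigo2 and Bok) and 3 of dentate granule cells (Prox1, C1ql2 and Dsp). All animals were Camk2a-tTA/tetO-EGFP-L10a double transgenics on C57BL/6: a transactivator under the Camk2a promoter switches on a ribosomal protein fused to green fluorescent protein in excitatory neurons, and an antibody to that protein pulls the ribosomes down. CA1 tissue was dissected into dendrites and soma, from home cage animals or from animals that had undergone fear conditioning, in which a context or cue predicts a shock. The immunoprecipitates numbered 8, with 2 for each behaviour and location. The 3 supernatants, which hold RNA not pulled down, were 1 of home cage dendrite, 1 of fear conditioned dendrite and 1 of fear conditioned soma, all numbered 2. Each title (behaviour, number, location and fraction) stands for 2 runs, one paired-end and the other single-end, which counted as 1 replicate, although the labels do not say whether 1 library was sequenced in both ways or each run had a library of its own. Neither the age of the animals nor whether each library stands for its own animals is given by the labels, so the spread behind the p-values may be partly technical.

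The hippocampus is a chain of fields. Granule cells of the dentate gyrus send mossy fibres to CA3, CA3 pyramidal cells project to CA1 through the Schaffer collaterals, and CA2 lies between CA3 and CA1. Genes confined largely to one field are used to tell these cells apart in sections and to judge which field a dissection holds. The Camk2a promoter is active in excitatory neurons across the forebrain, so selection for CA1 rests on the dissection.

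Values are FPKM, fragments per kilobase of transcript per 1 M mapped fragments, for 2 parts of each transcript. The coding part runs from the 5′ UTR through the coding sequence into the first bases of the 3′ UTR, and the remaining 3′ UTR is the other part. From the spacing of low values depth was estimated at 6.35 to 38.6 M fragments paired-end and 0.579 to 11.6 M reads single-end. Paired-end libraries had 3220 to 13164 genes above 0. In home cage soma immunoprecipitate 2, Rpsa alone made up 74.0% of all FPKM. In the same runs Camk2a, the kinase gene whose promoter drives the tag, ranged from 63.6 to 706 FPKM in dendrite immunoprecipitates and from 2.30 to 109 in soma immunoprecipitates. Neurod6, a transcription factor of pyramidal neurons, reached 1.72 at most in dendrite and ranged from 0.252 to 103 in soma. Camk2a was thus above 0 in all 8 immunoprecipitates. Slc17a7, the vesicular glutamate transporter, was listed at 0 in 1 dendrite immunoprecipitate. Nrgn, a calmodulin-binding protein of principal neurons, was listed at 0 in 3 of 4 dendrite and 1 of 4 soma immunoprecipitates.

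Most member values in the immunoprecipitates were 0. Over 10 members and 11 libraries, 53 of 110 paired-end coding values were above 0 (48.2%, against 26.6% of all genes in the table). In the 8 immunoprecipitates 30 of 80 were above 0 (37.5%, against 22.2% of all genes), and in the 3 supernatants 23 of 30 (76.7%, against 38.3%). The home cage soma immunoprecipitate 2 had 0 members above 0, the fear conditioned dendrite immunoprecipitate 1 had 7 and the home cage dendrite supernatant had 9. The single-end runs with the same titles had 50 of 110 above 0, of which 44 were above 0 in both runs, 9 values were above 0 in the paired-end run alone and 6 in the single-end run alone. An FPKM of 0 is written here as listed at 0, since it can also be a failed estimate.

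**Figure D1:**
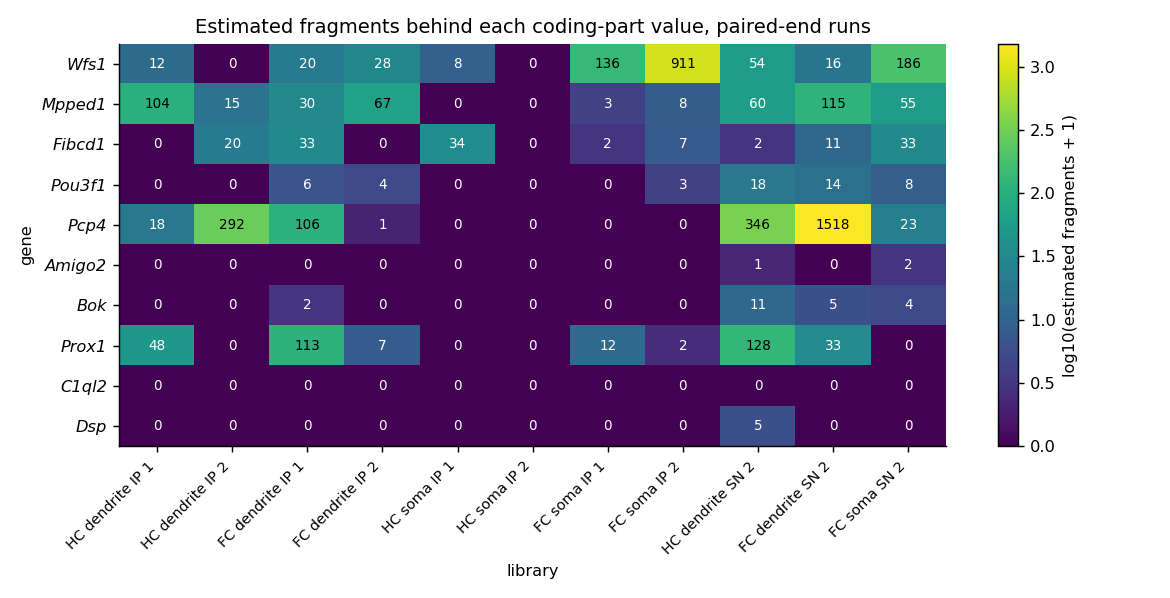
Estimated number of fragments behind each paired-end coding value, for the 10 members (vertical axis) in the 11 libraries (horizontal axis; HC home cage, FC fear conditioned, IP immunoprecipitate, SN supernatant); colour is log10(estimated fragments + 1). Pcp4 reaches 1518.3 fragments in a dendrite supernatant and 0 in the 4 soma immunoprecipitates, and Amigo2, C1ql2 and Dsp rest on 0 to 5 fragments in every library.

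Wfs1 encodes wolframin, a membrane protein of the endoplasmic reticulum, and is a standard marker of CA1 pyramidal cells (mm9 chromosome 5, 37357914 to 37380221, minus strand). Its paired-end coding FPKM was 0.686 and 0 in home cage dendrite immunoprecipitates 1 and 2, and 0.307 and 0.494 in the fear conditioned ones. In soma immunoprecipitates it was 0.209 and 0 in the home cage, and 2.30 and 10.02 after fear conditioning. The 2 fear conditioned soma libraries were above the other 6, while the home cage soma libraries lay within the range of the dendrite libraries, so dendrite and soma overlapped. The supernatants had 0.508 and 0.148 in dendrite (home cage, then fear conditioned) and 2.43 in soma. Group means stood in the order soma immunoprecipitate 3.13 ± 4.71 (SD, n = 4), soma supernatant 2.43, dendrite immunoprecipitate 0.372 ± 0.292 (SD, n = 4) and dendrite supernatant 0.328 ± 0.254 (SD, n = 2), and of these neighbours the middle pair was apart by more than the SD of the dendrite libraries. The single-end run gave 3.19, 0, 2.55 and 0.258 in the dendrite immunoprecipitates in the same order, 0.608, 0.0820, 17.2 and 15.7 in soma, 8.52 and 5.29 in the dendrite supernatants and 16.2 in the soma supernatant. The fear conditioned soma libraries were again the highest immunoprecipitates.

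Mpped1 encodes a metallophosphoesterase domain protein (chromosome 15, 83615259 to 83686994, plus strand). It had 14.1 and 0.688 FPKM in home cage dendrite immunoprecipitates and 1.14 and 2.88 in fear conditioned ones. Home cage soma immunoprecipitates were both listed at 0, and the fear conditioned ones had 0.127 and 0.203. Every dendrite immunoprecipitate was above every soma immunoprecipitate in this run. Without the home cage dendrite library 1 the other 3 still ranged from 0.688 to 2.88. The supernatants had 1.34 and 2.57 in dendrite and 1.73 in soma, so the RNA not pulled down was at levels of the dendrite immunoprecipitates in both locations. The order of means was dendrite immunoprecipitate 4.70 ± 6.33 (SD, n = 4), dendrite supernatant 1.96 ± 0.868 (SD, n = 2), soma supernatant 1.73 and soma immunoprecipitate 0.0826 ± 0.1004 (SD, n = 4); the first step was larger than the SD of the supernatants and smaller than that of the immunoprecipitates, and the soma immunoprecipitates lay below the soma supernatant by more than their SD. The single-end run broke the separation of dendrite and soma, with 239, 0, 4.25 and 1.74 in dendrite against 0.633, 0, 13.2 and 2.67 in soma.

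Fibcd1, a transmembrane receptor with a fibrinogen-like domain that binds acetylated structures such as chitin (chromosome 2, 31671760 to 31701525, minus strand), had dendrite immunoprecipitate values of 0 and 0.648 in the home cage and of 0.891 and 0 with fear conditioning. In soma it was 1.47 and 0 in the home cage, and 0.0596 and 0.133 after fear conditioning. Highest and lowest values of both locations overlapped, and each location held a library at 0. The supernatants had 0.0324 and 0.176 in dendrite and 0.742 in soma. Pou3f1, a POU-domain transcription factor with a single coding exon (chromosome 4, 124334889 to 124336498, plus strand), was above 0 in 3 of 8 immunoprecipitates, namely both fear conditioned dendrite libraries (0.184 and 0.141) and fear conditioned soma 2 (0.0651). It was 0.332 and 0.255 in the dendrite supernatants and 0.211 in the soma supernatant, each above all 8 immunoprecipitates. Its single-end run, however, listed 11.3 FPKM from an estimated 9.3 reads in the home cage dendrite immunoprecipitate 2, whose paired-end value was 0.

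Pcp4, which encodes a small regulator of calmodulin, labels CA2 and is also found in dentate granule cells (chromosome 16, 96689213 to 96747322, plus strand). It had the highest mean of the 10 members, 18.1 FPKM over the 11 paired-end libraries. In dendrite immunoprecipitates it was 7.72 and 42.3 in the home cage, and 12.8 and 0.153 after fear conditioning, from an estimated 17.8, 291.8, 106.5 and 1.1 fragments. In all 4 soma immunoprecipitates it was listed at 0. The groups did not overlap, although the lowest dendrite value rested on about 1 fragment. The supernatants ran in the same direction, with 25.0 and 108 in dendrite against 2.29 in soma. The order was dendrite supernatant 66.7 ± 59.0 (SD, n = 2), dendrite immunoprecipitate 15.8 ± 18.5 (SD, n = 4), soma supernatant 2.29 and soma immunoprecipitate at 0, and each of the first 2 steps was smaller than the SD of its higher group. In single-end runs Pcp4 was 46.4 and 105 in the dendrite supernatants and 2.91 in the soma supernatant. The home cage value was above the paired-end 25.0, and dendrite was again above soma. The single-end immunoprecipitates did not repeat the paired-end pattern: the value was 3.41 in home cage dendrite 1, 0 in the other 3 dendrite libraries, 12.8 in fear conditioned soma 1 and 0 in the other 3 soma libraries. Igsf5 overlaps Pcp4 on the same strand and had at most 3.01e-07 FPKM in any run.

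The other CA2 and CA3 markers were close to absent from the coding part. Amigo2, an adhesion molecule typical of CA2 (chromosome 15, 97075213 to 97077718, minus strand), was listed at 0 in all 8 immunoprecipitates and in the fear conditioned dendrite supernatant. It had 0.0134 in the home cage dendrite supernatant and 0.0319 in the soma supernatant. Bok, a member of the BCL2 family and a CA3 marker (chromosome 1, 95582271 to 95591937, plus strand), was above 0 in 1 of 8 immunoprecipitates, at 0.106 in fear conditioned dendrite 1. Its supernatant values were 0.348, 0.158 and 0.184, each above that of any immunoprecipitate, and 1.03, 1.37 and 0.158 in the single-end runs, whose immunoprecipitates were all at 0.

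Prox1, the homeobox gene that maintains granule cell identity (chromosome 1, 191946901 to 191994559, minus strand), was the one dentate marker with a coding signal in immunoprecipitates. Home cage dendrite libraries had 2.81 and 0, and fear conditioned ones 1.83 and 0.134. Both home cage soma libraries were at 0, and the fear conditioned soma libraries had 0.207 and 0.0166. Dendrite and soma overlapped through the dendrite library at 0. The supernatants had 1.24 and 0.320 in dendrite and 0 in soma. The order of means was dendrite immunoprecipitate 1.19 ± 1.36 (SD, n = 4), dendrite supernatant 0.781 ± 0.652 (SD, n = 2), soma immunoprecipitate 0.0560 ± 0.1012 (SD, n = 4) and soma supernatant at 0, where the middle step was slightly larger than the SD of the dendrite supernatants and the other 2 steps were within the spread. The single-end run had 1.34, 0, 1.43 and 2.53 in dendrite and 0, 0, 12.01 and 0.164 in soma, so its highest value was in a soma library. C1ql2, a secreted protein of mossy fibre synapses (chromosome 1, 122237159 to 122239349, plus strand), was listed at 0 in all 11 paired-end libraries. Dsp, which encodes the desmosomal protein desmoplakin (chromosome 13, 38243163 to 38289999, plus strand), was above 0 in 1 library, at 0.0143 in the home cage dendrite supernatant. Across all genes, 44.3% were at 0 in every paired-end library, so C1ql2 is not unusual in that respect.

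**Figure D2:**
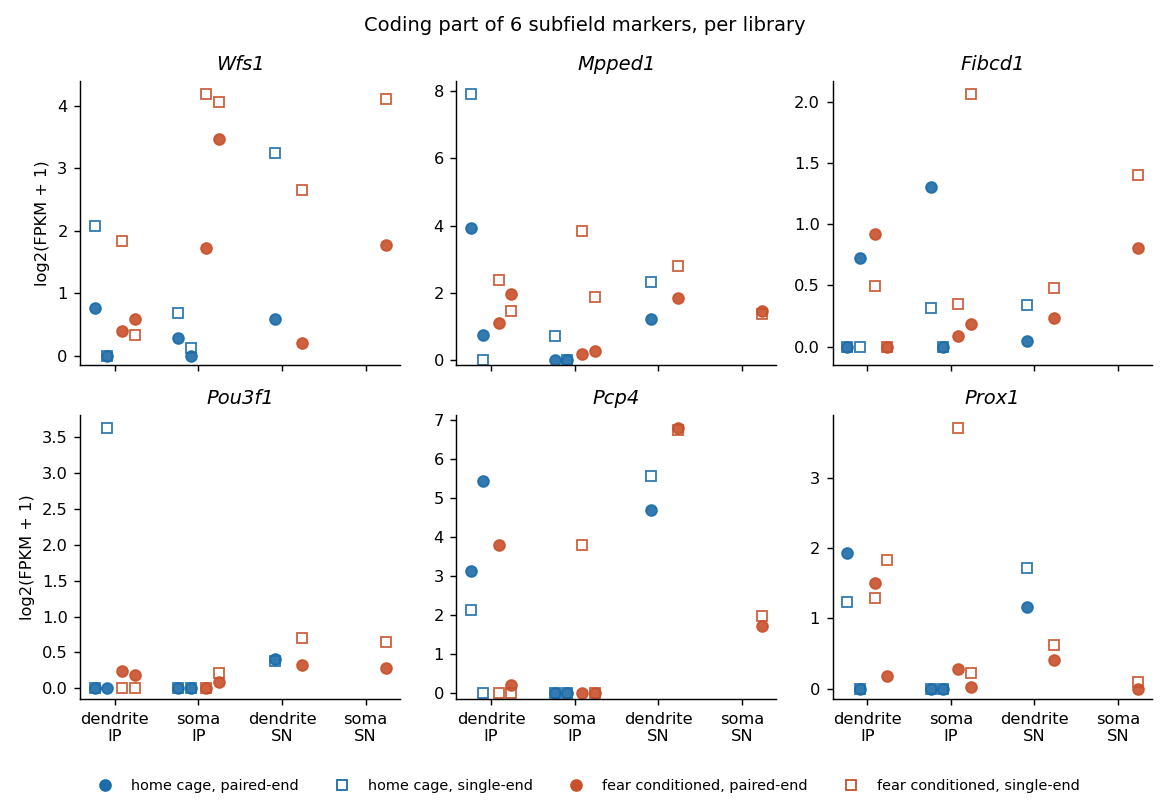
Coding-part levels of 6 members as log2(FPKM + 1), without scaling, by location and fraction (IP immunoprecipitate, SN supernatant); each point is 1 run of 1 library, filled for paired-end and open for single-end, blue for home cage and orange for fear conditioned. Mpped1 and Pcp4 separate dendrite from soma immunoprecipitates in filled points and not in open ones, and Pcp4 is highest in the dendrite supernatants in both runs.

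Summed over each field in the paired-end runs, CA1 markers came to 1.34 to 14.8 FPKM in dendrite and 0 to 10.4 in soma immunoprecipitates. They came to 2.22 and 3.15 in the dendrite supernatants and to 5.11 in the soma supernatant. The CA2 and CA3 markers came to 0.153 to 42.3, to 0 in every soma immunoprecipitate, to 25.3 and 109 and to 2.50, nearly all of it Pcp4. Dentate markers came to 0 to 2.81, 0 to 0.207, 1.26 and 0.320, and 0. In these bulk libraries fewer cells of a type and less RNA per cell cannot be told apart.

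Further subfield genes outside the set were low in the paired-end immunoprecipitates. The other CA1 markers (Spink8, Man1a and Gpr161) summed to 0 to 1.68 FPKM in dendrite and 0 to 8.93 in soma immunoprecipitates, 0.607 and 1.84 in the dendrite supernatants and 5.02 in the soma supernatant. Spink8 was listed at 0 in all dendrite immunoprecipitates and in 3 of 4 soma immunoprecipitates, at 7.10 in fear conditioned soma 2 and at 3.60 in the soma supernatant. Man1a reached 1.20 in both the fear conditioned dendrite 1 and soma 1 immunoprecipitates. The other CA2 markers (Rgs14, Necab2, Cacng5 and Map3k15) summed to 0.0555 to 0.793 in dendrite and 0 to 2.15 in soma immunoprecipitates, with Rgs14 at 2.14 in fear conditioned soma 2. Necab2 was highest in the dendrite supernatants, at 0.794 and 2.04, as Pcp4 was. Rgs14 went the other way among supernatants, with 0.0816 and 0.0283 in dendrite against 0.638 in soma, so CA2 markers had no common pattern there. The other CA3 markers (Grik4, Iyd, Pvrl3, Dkk3 and Ociad2) summed to 0 to 4.94 and 0.108 to 4.88, with Iyd at 0 in all 11 libraries, Ociad2 at up to 2.71 and Dkk3 at up to 2.38. The other dentate markers (Tdo2, Lct, Trpc6, Stxbp6, Dock10, Plk5, Ablim3 and Maml2) summed to 0 to 2.76 and 0.0855 to 2.90, with Tdo2 at 0 in all 11, and Maml2 and Lct each at up to 1.94 among immunoprecipitates. In the single-end runs the CA3 sums overlapped, at 2.67 to 89.5 in soma and 0 to 13.4 in dendrite immunoprecipitates, with 39.4 in the soma supernatant. Ociad2 made up most of the soma sums, at 85.9 in fear conditioned soma immunoprecipitate 2 and 31.7 in the soma supernatant. Pvrl3 went the other way, at 9.78 in fear conditioned dendrite immunoprecipitate 1 and at most 0.119 in soma immunoprecipitates. The other CA2 genes were at 0 in all single-end dendrite immunoprecipitates and summed to 0 to 3.22 in soma. The other CA1 sums were at most 0.396 in dendrite and at least 0.169 in soma. The other dentate sums overlapped, at 0 to 3.87 against 0.145 to 2.79.

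The first test compared dendrite with soma immunoprecipitates, 4 against 4, on log2(scaled FPKM + 1), where scaling divides a library by its median ratio to the other libraries. None of the members passed. Wfs1, Mpped1 and Pcp4 had a mean scaled FPKM of at least 1 and were tested among 2928 genes, and the other 7 did not reach this minimum. Pcp4 had a scaled FPKM of 11.97 ± 15.7 in dendrite and 0 in all soma libraries (n = 4), a log2 difference of 2.76 (SE 0.91, 95% interval 0.78 to 4.73) with a limma p of 0.00998 before adjustment and 0.650 after Benjamini-Hochberg adjustment. Mpped1 had 3.90 ± 6.07 against 0.0536 ± 0.0625 (SD, n = 4), a log2 difference of 1.53 (SE 0.84, -0.30 to 3.35). Wfs1 had 0.259 ± 0.272 against 1.98 ± 2.68 (SD, n = 4), a log2 difference of -0.86 (SE 0.74, -2.47 to 0.76). For both, the limma adjusted p was again 0.650. The test called 0 genes in all (0%). An unadjusted p under 0.05 was found for 139, of which 55 (1.88%) were higher and 84 (2.87%) lower in dendrite. The median log2 difference of all tested genes was -0.30.

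In scaled values Mpped1 and Pcp4 were higher in each of the 4 dendrite libraries than in any soma library, as were 50 of 2928 tested genes (1.71%), and none of the 3 was higher in every soma library, as 51 genes were (1.74%). Since the dendrite libraries were needed for both genes to reach the minimum, no support is read from this count. The difference of Pcp4 was -0.21 in the single-end table, and that of Mpped1 was -0.06 in the rest of the 3′ UTR, so neither direction held in every measurement. Wfs1 reached the minimum through the fear conditioned soma libraries (scaled FPKM of 1.74 and 5.83, with a mean of 1.12 over the 8) and was not tested when either was left out, so nothing is read from the sign of its difference either.

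**Figure D3:**
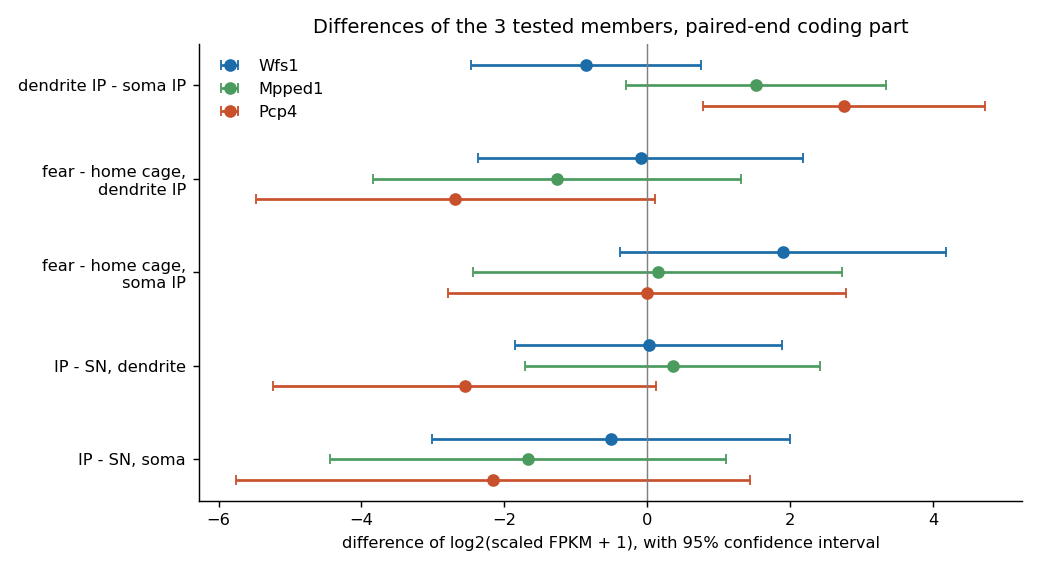
Differences of log2(scaled FPKM + 1) for Wfs1, Mpped1 and Pcp4 with 95% confidence intervals from limma, in 5 comparisons of paired-end coding values (IP immunoprecipitate, SN supernatant). No member passes in any of them. Pcp4 between dendrite and soma immunoprecipitates runs from 0.78 to 4.73 with an adjusted p of 0.650, and it reached the minimum through dendrite libraries alone, so nothing is read from the place of that interval.

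Of the markers of other cell types, only the astrocyte sums separated dendrite from soma immunoprecipitates in paired-end runs. The paired-end sums of the other lists overlapped between the 2 locations, and 0 of the genes passed the test. The 6 astrocyte genes (Gfap, Aqp4, Slc1a3, Slc1a2, Aldh1l1 and Glul) summed to 92.1 to 357 FPKM in dendrite and 0.901 to 16.2 in soma immunoprecipitates, to 186 and 212 in the dendrite supernatants and 10.5 in the soma supernatant. All 4 tested astrocyte genes had positive differences, with a median of 2.41, and 0 passed, while 42.6% of all tested genes were positive. Gfap reached the minimum through the dendrite libraries (mean scaled FPKM of 1.99, against 0.281 in soma). Slc1a2, the main glutamate transporter, was 10.5 to 239 in dendrite and 0.590 to 9.72 in soma, Glul, glutamine synthetase, was 44.4 to 85.7 against 0.263 to 4.63, and Gfap was 0.0761 to 9.24 against 0.0478 to 0.874. The 4 oligodendrocyte genes (Mbp, Mog, Mobp and Cnp) summed to 5.05 to 82.3 against 0.787 to 13.8, with Mbp at 4.95 to 52.1 against 0.787 to 13.5, Mobp at 0 to 27.0 against 0 to 2.01 and Mog at 0 in every soma immunoprecipitate. The 5 microglia genes (C1qa, C1qb, Csf1r, Cx3cr1 and Aif1) summed to 0.369 to 9.89 against 0.0167 to 5.26, with C1qa at 0 in 3 of 4 libraries at each location, C1qb at 0 in every soma immunoprecipitate and Csf1r at up to 2.58 and 5.26. The 6 interneuron genes (Gad1, Gad2, Slc32a1, Sst, Pvalb and Vip) summed to 0.327 to 15.5 against 0 to 12.1, with Gad1 at 0 to 3.23 against 0 to 0.323, Gad2 at up to 15.5 and 0.977, Sst at up to 4.36 and 11.8 and Pvalb at 0 in all immunoprecipitates. The 3 vascular genes (Cldn5, Pecam1 and Flt1) summed to 0 to 7.73 against 0 to 0.346, with the highest Cldn5 (2.30) and Flt1 (5.04) both in fear conditioned dendrite 1. In the single-end runs these sums overlapped between dendrite and soma immunoprecipitates: 36.8 to 126 against 0.956 to 90.8 for astrocytes, 0 to 30.2 against 0 to 454 for oligodendrocytes, 1.95 to 38.8 against 0 to 20.6 for microglia, 0 to 5.06 against 0 to 7.502 for interneurons and 0 to 4.90 against 0 to 0.190 for vascular cells. Of the astrocyte genes in the single-end runs, Glul did not overlap, at 23.9 to 34.2 in dendrite against 0 to 4.41 in soma immunoprecipitates. The other astrocyte genes, Slc1a2 and Gfap among them, did. Csf1r, the 1 microglia gene tested, had a paired-end log2 difference of -0.58 (SE 0.85). The part of other cells in the levels of Pcp4, Mpped1 and Prox1 was not tested.

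Further tests compared fear conditioned with home cage animals, 2 libraries against 2, within each location, and no member passed. In dendrite the scaled FPKM of Pcp4 was 2.82 ± 3.87 in fear conditioned and 21.1 ± 19.8 in home cage libraries (SD, n = 2), a log2 difference of -2.68 (SE 1.29, -5.47 to 0.11) with a limma adjusted p of 0.944. In scaled values both home cage libraries, 7.12 and 35.1, were above both fear conditioned ones, 5.56 and 0.0832. In FPKM without scaling the home cage 7.72 lay below the fear conditioned 12.8, so there the groups overlapped. Pcp4 reached the minimum mostly through these home cage libraries, and Mpped1 through home cage dendrite library 1. Nothing is therefore read from the sign of either difference. Mpped1 differed by -1.26 (SE 1.19) and Wfs1 by -0.09 (SE 1.05), each with a limma adjusted p of 1. Of all genes 0 passed (0%), and 96 had an unadjusted p under 0.05.

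In soma that of Wfs1 was 3.79 ± 2.90 in fear conditioned and 0.175 ± 0.247 in home cage libraries (SD, n = 2), a log2 difference of 1.90 (SE 1.05, -0.38 to 4.18) with a limma adjusted p of 0.568. In the coding part both fear conditioned libraries were above both home cage libraries in the paired-end and in the single-end run, but these are the libraries through which Wfs1 reached the minimum. In the paired-end rest of the 3′ UTR the home cage 11.9 FPKM lay above the fear conditioned 3.69, so there the groups overlapped. In the single-end run of that part they did not overlap. Across all genes the median difference in this comparison was 0.43 and 61.9% of tested genes were positive, and the home cage soma library 2 was the one dominated by Rpsa. The excitatory markers were also positive, 4 of 4 with a median of 1.42, and 0 passed. Mpped1 differed by 0.15 (SE 1.19), and Pcp4 was listed at 0 in all 4 libraries. Of all genes 0 passed (0%), with 217 whose unadjusted p was under 0.05; the fear conditioned libraries were higher in 174 of these. The difference between the effect in dendrite and that in soma was tested too: it was -1.99 (SE 1.49) for Wfs1, -1.41 (SE 1.68) for Mpped1 and -2.68 (SE 1.82) for Pcp4, with limma adjusted p of 0.716, 0.731 and 0.716, and 0 genes passed.

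The last tests set immunoprecipitates against supernatants over 11 libraries and 2938 tested genes, with behaviour as a covariate. Only tagged ribosomes are pulled down, so a supernatant is not free of ribosome-bound RNA. In dendrite Pcp4 had a log2 difference of -2.55 (SE 1.26, -5.24 to 0.13), immunoprecipitate minus supernatant, and a limma adjusted p of 1. The home cage supernatant at 25.0 lay within the range of the immunoprecipitates, 0.153 to 42.3, and the fear conditioned one at 108 above it. Mpped1 differed by 0.36 (SE 0.97) and Wfs1 by 0.02 (SE 0.88). The test called 2 genes (0.0681%), both lower in the immunoprecipitates and neither a member: Gm3168 and AK193394, named after their values were seen. Both were listed at 0 in all paired-end immunoprecipitates, which the single-end runs did not repeat. There Gm3168 was the gene with the highest FPKM in home cage dendrite immunoprecipitates 1 and 2 and fear conditioned dendrite immunoprecipitate 2, with 65.9%, 41.9% and 45.6% of all FPKM, and AK193394 had 719, 30609 and 31730 FPKM in them against 196 and 9.37 in the dendrite supernatants. In soma Pcp4 differed by -2.16 (SE 1.70), Mpped1 by -1.67 (SE 1.31) and Wfs1 by -0.51 (SE 1.18), with 0 genes called (0%) and 28 with an unadjusted p under 0.05. The single soma supernatant is assumed there to vary like the other libraries. Astrocyte markers were lower in dendrite immunoprecipitates than in their supernatants for 5 of 5 tested genes, with a median of -1.01. Oligodendrocyte markers were lower for 3 of 3, with a median of -2.11, against -0.11 for all genes, of which 43.2% were positive. No marker of either list passed. Aqp4 and Cnp averaged 0.503 and 0.371 scaled FPKM over the immunoprecipitates and reached the minimum through the supernatants. No support is therefore read from these counts.

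The rest of the 3′ UTR gave a second reading of the same transcripts. Here 52 of 110 paired-end member values were above 0 (47.3%, against 16.5% of all genes). Wfs1 had 0, 0, 1.99 and 0.493 FPKM in the dendrite immunoprecipitates (home cage 1 and 2, then fear conditioned 1 and 2), 11.9, 0.145, 3.69 and 16.2 in soma, 2.53 and 1.36 in the dendrite supernatants and 16.5 in the soma supernatant. Soma was high in 3 of its 4 libraries and its lowest library lay within the dendrite range. Mpped1 had 0.874, 9.99, 3.20 and 1.81 in dendrite and 0.414, 0.0322, 9.12 and 8.97 in soma. The 2 fear conditioned soma libraries, low in the coding part, were among the 3 highest immunoprecipitates in the 3′ part, so dendrite and soma overlapped. Pou3f1 had 0, 9.71, 0.339 and 1.82 in dendrite, 0, 0, 2.87 and 5.53 in soma and 2.01, 1.17 and 4.07 in the supernatants.

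Where both parts were above 0, the 3′ part had the higher FPKM in 26 of 39 member values in paired-end runs, against 56.0% of all such gene values, and in 26 of 35 in single-end runs, against 51.7%. Pou3f1 had the higher 3′ value in 6 of 6 paired-end and 5 of 5 single-end libraries, with a median ratio of 9.49 and 9.40. For Wfs1 it was 7 of 8 and 8 of 8, with medians of 5.74 and 6.94. Mpped1 was mixed, with 7 of 9 and 3 of 8 and ratios from 0.00501 to 71.9. Fibcd1 had 2 of 8 and 4 of 6, and Prox1 1 of 4 and 2 of 3. A Pou3f1 or Wfs1 level thus depended on the part of the transcript that was read.

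Both fields other than CA1 gave isolated 3′ signals. C1ql2, at 0 in the coding part of all paired-end libraries, had 0.295 and 0.919 in the 3′ part of the dendrite supernatants and 2.57 and 3.80 in their single-end runs, and 0 elsewhere. Bok had 655 FPKM in the 3′ part of the fear conditioned dendrite immunoprecipitate 2, where its coding part was at 0, and 31.7 in the single-end run of that title. In the other 10 paired-end libraries the 3′ part of Bok was between 0 and 1.38. Amigo2 was above 0 in the soma supernatant alone, at 0.232, and Prox1 had 0.470, 0.911 and 1.21 in the supernatants and up to 0.195 in immunoprecipitates. The 3′ parts of Dsp and Pcp4 were at 0 in all paired-end libraries; that of Pcp4 is 78 bases long in the deposited annotation.

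**Figure D4:**
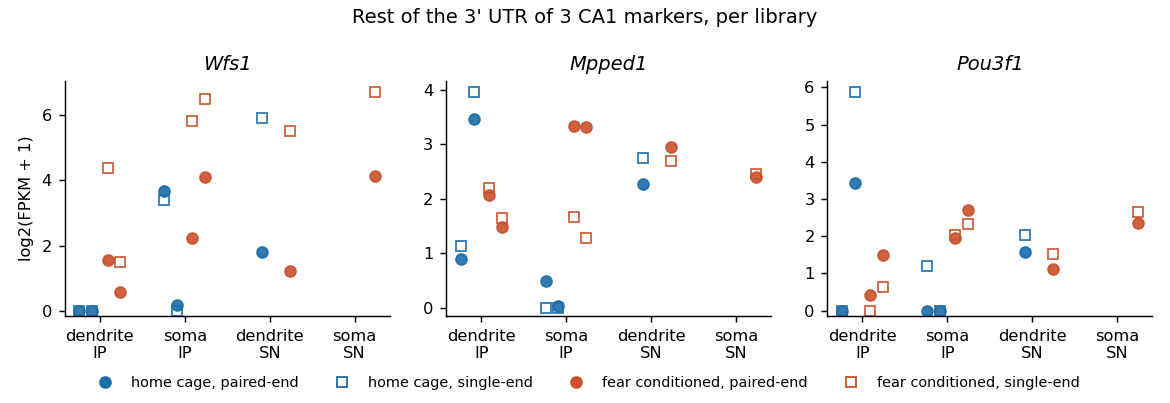
Levels in the rest of the 3′ UTR of Wfs1, Mpped1 and Pou3f1 as log2(FPKM + 1), without scaling, by location and fraction (IP immunoprecipitate, SN supernatant); points as filled for paired-end, open for single-end, blue for home cage and orange for fear conditioned. Mpped1 in the 2 fear conditioned soma immunoprecipitates is 9.12 and 8.97 FPKM in the paired-end run, within the dendrite range.

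**Figure D5:**
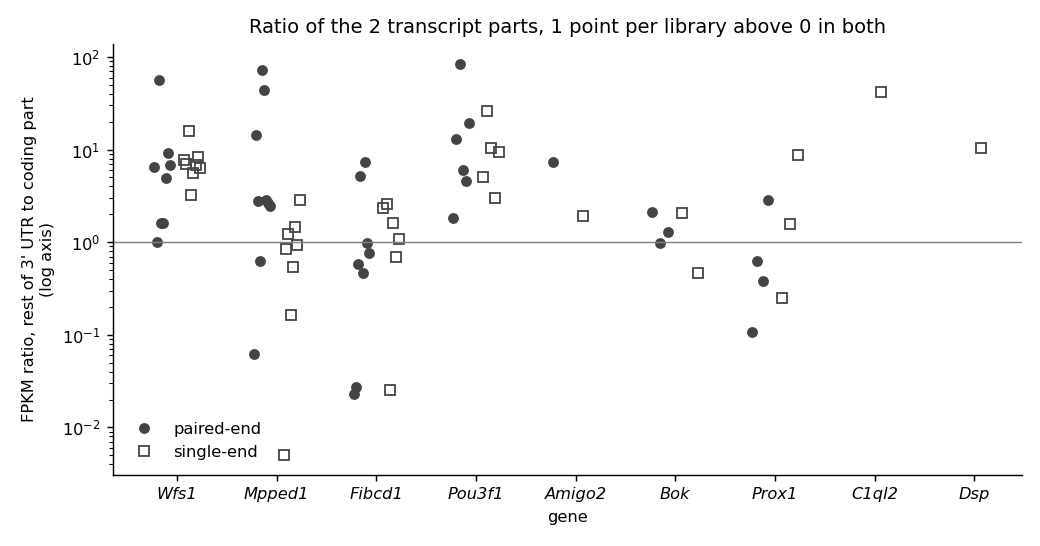
Ratio of FPKM in the rest of the 3′ UTR to FPKM in the coding part on a log axis, 1 point per library in which both were above 0, filled for paired-end and open for single-end; the line is a ratio of 1. All points of Pou3f1 lie above the line, and those of Mpped1 spread from 0.00501 to 71.9.

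Members above 0 in at least 8 of 11 paired-end libraries were Wfs1 and Mpped1, with 9, and Fibcd1, with 8; 14.2% of all genes reached that. The tested genes whose scaled values ran most like theirs over the 11 libraries were listed by Pearson's r, as a description. For Wfs1 they were Wasf1, Kdm5b and Ap4s1 (r of 0.93 each), for Mpped1 Gpbp1 (0.96), Nomo1 (0.95) and Ncs1 (0.95), and for Fibcd1 Dtx3 (0.95), Fv1 (0.94) and Gars (0.94). Each set shared the library in which its genes were highest: fear conditioned soma immunoprecipitate 2, home cage dendrite immunoprecipitate 1 and home cage soma immunoprecipitate 1. In the single-end runs the same pairs had r of 0.88, 0.48 and 0.69, of 0.83, 0.098 and 0.17, and of 0.056, -0.12 and 0.56.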

How the data were processed

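RNA for the 11 CA1 libraries went through Nugen Ovation amplification, with no molecular identifiers named, per the labels' protocols. Tools named are Cufflinks 2.0.2, STAR 2.1.1d and CASAVA 1.9, with build mm9, per the submitters' processing notes, which give no settings. The authors deposited FPKM per gene, run and transcript part, per the file headers, with no counts, so intervals for counting error are not given. Coordinates are 1-based, from the authors' deposited mm9 annotation. Igsf5 overlaps Pcp4 on the same strand, so strand could not separate them. Fam113b overlaps Amigo2 and AK142161 overlaps Prox1 on the opposite strand. Whether counting used strand is not stated, so these pairs cannot be separated either. The overlapping genes were named after their values were seen.

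Fragments were estimated from the spacing of low FPKM of transcripts of at least 1500 bases, with 200 bases subtracted from the length. Of these low values 88.4 to 94.1% in paired-end and 86.2 to 95.1% in single-end runs lay within 0.1 of a whole number. This rule was set after the values were seen.

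Each library was scaled by its median ratio over 870 genes above 0 in the 8 immunoprecipitates, or 765 above 0 in the 11. Genes averaging 1 scaled FPKM or more entered limma 3.58.1 in R 4.3.3 on log2(scaled FPKM + 1), a scale that understates changes of low genes, with trended moderation and two-sided p-values; Benjamini-Hochberg adjustment covered every tested gene, at 0.05. Group means had 4 residual degrees of freedom (8 libraries) or 6 (11 libraries). The test was tried on simulated data first. Comparisons stayed within a table, and the single-end run never added to n.

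Members and marker lists were chosen with earlier results of these data known, and 2 genes of the other marker lists are not reported here. Named genes were the 10 members, Camk2a, Neurod6, Slc17a7, Nrgn, Gfap, Mbp, Gad1 and C1qa, and the 2 highest genes of each other list; the other members of a list are named to define it. The 3 most similar genes were given for members above 0 in at least 8 libraries.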

Additional observations from a re-analysis of the deposited data

Results flagged for a closer look

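In 4 of the 12 groups of 4 immunoprecipitates whose member values were not all equal, 1 library stood apart from the other 3. The gap on log2(scaled FPKM + 1) was more than 0.829 of the group's range. For normally distributed values chance gives such a gap in about 1 group in 20. Many values here were 0, so that rate does not hold and no excess is read from the count. Fibcd1 was at 1.47 FPKM in home cage soma 1 (gap 0.940 of the range). Prox1 was at 0.207 in fear conditioned soma 1 (0.934). Pou3f1, at 0.0651 in fear conditioned soma 2, and Bok, at 0.106 in fear conditioned dendrite 1, were the single values above 0 in their groups, which makes the gap the whole range. On FPKM without scaling 5 groups passed: these 4, with gaps of 0.909 for Fibcd1 and 0.920 for Prox1, and Mpped1 in dendrite, through home cage dendrite 1 (0.836).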

How the results depend on the processing

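Of 237 values of Wfs1, Mpped1 and Pcp4 under alternative settings, 222 kept their direction, 15 took the other one and 0 passed the threshold. Between dendrite and soma immunoprecipitates Pcp4 was -0.21 in the single-end table and Mpped1 -0.06 in the rest of the 3′ UTR; leaving out 1 library gave 2.03 to 3.35 for Pcp4 (lowest adjusted p = 0.26 by limma), 1.30 to 2.34 for Mpped1 and -1.04 to -0.65 for Wfs1, from 8, 7 and 6 fits. Mpped1 fell under the minimum without home cage dendrite immunoprecipitate 1, and Wfs1 without either fear conditioned soma immunoprecipitate, here and in the other comparisons. Against the supernatants Wfs1 also did so without that of soma. Between fear conditioned and home cage dendrite Wfs1 was 0.11 with a pseudocount of 0.1, 0.11 without scaling and 0.62 in the 3′ UTR, and leave-one-out fits gave -0.44 to 0.27, the highest without home cage dendrite 1. Between dendrite immunoprecipitates and supernatants Wfs1 was -0.13 with a pseudocount of 0.1, -1.19 in the single-end table, -0.96 in the 3′ UTR and -0.0038 with scaling over genes of at least 0.01 FPKM (added after the data were seen), and leave-one-out fits gave -0.56 (without fear conditioned dendrite supernatant 2; -0.25 without home cage dendrite 1) to 0.57. There Mpped1 was -0.69 in the 3′ UTR and -0.21 to 0.89 leaving out 1 library, the lowest without the home cage dendrite supernatant. Without scaling Wfs1 was 0.06 in soma immunoprecipitates against the supernatant.

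Counts of genes called also moved. Dendrite against soma gave 1 in the single-end table, 1 without scaling and 1 with the replicate block. Fear conditioning in soma gave 1 without scaling and 0 to 135 leaving out 1 library. The counts were 102 without home cage soma 2, 135 without fear conditioned soma 1 and 121 without fear conditioned soma 2. Each of these fits leaves 1 library in a group, so no support is read from the counts. No member was among the genes called, but Wfs1 was not tested when either fear conditioned soma library was left out. Pcp4 was at 0 in all soma immunoprecipitates and could not be called there. Dendrite immunoprecipitates against supernatants, 2 genes, gave 1 with pseudocounts of 0.1 and 5, a minimum of 5 or the replicate block, 0 in the 3′ UTR, 10 in the single-end table, 376 with no minimum and 0 to 2 leaving out 1 library (0 without the home cage dendrite supernatant; 1 without the fear conditioned dendrite supernatant, any 1 of the 4 dendrite immunoprecipitates or either fear conditioned soma immunoprecipitate). Soma immunoprecipitates against the supernatant gave 1 with a pseudocount of 0.1, a minimum of 5 or the 3′ UTR, 10 in the single-end table and 935 with no minimum. Those 935 were of 16618 tested genes, and all were lower in the immunoprecipitates. The 376 in dendrite were also of 16618, with 375 of them lower. Bok (-0.28) and Amigo2 (-0.05) were among the 935. Each was at 0 in all soma immunoprecipitates and at 4 or fewer estimated fragments in the 1 soma supernatant, so no support is read from either call. No fit without that supernatant was possible.

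Samples with one number did not deviate together (correlations of -0.0168 to 0.0497). Noise within single libraries can hide a shared deviation, so this cannot tell whether they came from the same animals. With the replicate block Pcp4 was 2.76 between dendrite and soma (adjusted p = 0.728 by limma), and no member's call changed. The coding values of Amigo2, Bok, C1ql2 and Dsp rest on few fragments, and whether depth or low expression sets this was not tested.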
